A study of Mus musculus with 2 samples.

Results

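Oxidative phosphorylation (OXPHOS) is carried out by proteins encoded in both the nuclear and the mitochondrial genome, and both sets of transcripts were measured here in CD45+ cells of mice bearing MC38-OVAdim tumours. The genes were chosen by symbol: all that start with mt-, Nduf, Sdha, Sdhb, Sdhc, Sdhd, Uqcr, Cox4i, Cox5, Cox6, Cox7, Cox8 or Atp5, leaving out Cox6a2 and symbols that contain -ps. This gave 104 of the 12638 genes in the deposited matrix, 13 of them mt- genes (transcribed from mitochondrial DNA) and 91 nuclear. By known role, the mt- genes comprise 7 for complex I, 1 for complex III, 3 for complex IV and 2 for complex V. The nuclear genes comprise 36 for complex I, 4 for complex II, 8 for complex III, 15 for complex IV, 15 for complex V, 11 assembly factors and 2 others, Atp5s and Atp5sl. Ndufa4 and Cox7a2l were counted with complex IV.

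Complexes I to IV pass electrons from NADH and succinate to oxygen and, except for complex II, pump protons across the inner mitochondrial membrane. Complex V, the ATP synthase, uses the returning protons to make ATP. Every complex except complex II mixes subunits made in the mitochondrion with subunits imported from the cytosol, so the 2 genomes are read out together for each assembled enzyme. Among the factors known to act on promoters of the nuclear genes are NRF1, the ETS factor GABP and YY1. The mitochondrial genes are instead transcribed as long precursors from promoters in the control region of mitochondrial DNA.

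The study combined tumour, tumour-draining lymph node (dLN) and non-draining lymph node (ndLN) from 4 C57Bl6 mice, giving 12 samples. The 2 genotypes compared were mice with a floxed Havcr2 gene (Havcr2 fl/fl, WT1 and WT2) and mice labelled KO (KO1 and KO2). All 4 carried subcutaneous MC38-OVAdim cells, a mouse colon carcinoma line carrying ovalbumin, and the labels name no Cre driver, sex or age. CD45+ cells, enriched for dendritic cells (DCs) by flow sorting, were tagged by hashtag antibodies and run on 2 channels of a 10X Chromium 5′ kit, with WT1 and KO1 in channel 1 and WT2 and KO2 in channel 2. Each channel therefore held 1 mouse of each genotype.

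The file holds 12458 cells, with 473 to 1691 per sample and 3031124 to 28498154 unique molecular identifiers (UMIs, 1 per captured RNA molecule) per sample. Median UMIs per cell were 15191 in tumour, 4520 in dLN and 4633 in ndLN. Havcr2 was read first as a check of the labels. In tumour it stood at 0.737 and 0.839 UMIs per 10000 in WT1 and WT2 and at 0.259 and 0.150 in KO1 and KO2. In dLN it was 0.0848 and 0.0453 in WT mice against 0.00868 and 0.00459 in KO mice, and in ndLN 0.0982 and 0.0571 against 0.00484 and 0.00088. KO mice were below both WT mice in each tissue and kept residual reads, and the reads do not show which part of the gene they come from. Across all cells the median share of UMIs from the mt- genes was 2.35%, and from the 91 nuclear genes 1.97%. In 706 cells (5.67%) the mt- share was 5% or more, reaching 78.4%.

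Cell classes were gated on marker genes that are no OXPHOS genes. This placed 10055 cells in 1 class, 996 in more than 1 (left out, with no other treatment of doublets) and 1407 in none. Other markers, not used to gate, were then summed as a check. In dLN the B cell list (Ebf1, Pax5, Fcmr, Cd22) summed to 26.7 to 29.2 UMIs per 10000 in B-like cells and to at most 0.145 in every other class. The list for mature DCs (Ccl5, Relb, Socs2, Nudt17) summed to 164 to 337 in mature DC-like cells, against 2.10 to 3.25 in cDC2-like cells. Most of that sum was Ccl5 (148 to 317), which also stood at 73.2 in NK-like and 4.47 to 10.2 in CD8 T-like cells of dLN. Relb, Socs2 and Nudt17 started at 7.15, 5.39 and 4.02 in mature DC-like cells. In cDC2-like cells they reached at most 1.88, 0.0909 and 0.0434. Lat and Cd28, the T cell genes of the check list that the file holds, summed to 6.39 to 7.60 in CD8 T-like cells. For red cells, none of the 4 markers is in the file, so that check could not be made. Between the 2 channels 65 cell barcodes were shared.

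The promoters of nuclear members were searched for 3 short motifs, because these are the letters through which the named factors are known to bind OXPHOS genes. RefSeq windows on GRCm38.p6 (mm10), from 250 bases before to 50 after the start site, were matched by symbol for 75 of the 91 nuclear genes. Letters were sought on both strands: GCGCA and GCGC with any 1 base between them for NRF1, CCGGAAG for ETS factors and AAGATGGC for YY1. The promoters of 5 genes described below are shown from upstream of the motif towards the start site, with the motif in capitals.
Ndufb7: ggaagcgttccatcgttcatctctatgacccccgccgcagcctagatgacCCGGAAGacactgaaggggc
Ndufs5: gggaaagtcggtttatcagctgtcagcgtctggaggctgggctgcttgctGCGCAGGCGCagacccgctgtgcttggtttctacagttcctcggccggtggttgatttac
Uqcr11: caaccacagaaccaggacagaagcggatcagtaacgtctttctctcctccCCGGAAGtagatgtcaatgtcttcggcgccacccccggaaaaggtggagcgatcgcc
Cox6a1: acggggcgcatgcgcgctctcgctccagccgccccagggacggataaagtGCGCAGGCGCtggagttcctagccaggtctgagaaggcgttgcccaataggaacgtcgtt
Ndufb4: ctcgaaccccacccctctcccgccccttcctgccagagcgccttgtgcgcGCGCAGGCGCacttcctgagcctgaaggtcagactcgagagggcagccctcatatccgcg
The ETS letters lie in the windows of Ndufb7 (chr8:83566688-83566757, plus strand, 13 bases before the start site) and Uqcr11 (chr10:80406831-80406937, minus strand, 59 bases). The NRF1 letters lie in those of Ndufs5 (chr4:123718225-123718334, minus strand, 88 bases), Cox6a1 (chr5:115349016-115349125, minus strand, 107 bases) and Ndufb4 (chr16:37654388-37654497, minus strand, 69 bases). NRF1 letters were present in 21 of the 75 promoters (28%), against 5.19% of all 27025 genes with a promoter window. ETS letters were present in 20 (26.7% against 9.93%), YY1 letters in 9 (12% against 3.19%), and any of the 3 in 43 (57.3% against 16.4%). No member had overlapping hits of different motifs, and overlap between hits of the same motif was not checked. By complex, NRF1 letters stood in 7 of 32 complex I promoters, 2 of 3 for complex II, 1 of 5 for complex III, 1 of 12 for complex IV and 6 of 13 for complex V. YY1 letters stood in 7 of the 32 complex I promoters and 2 of the 13 for complex V, and in none of those for complexes II to IV. The Cox6a1 stretch also holds another match to the NRF1 letters, 152 bases before the start site, which is left in lower case. The Cox6a1 promoter has ETS letters as well, 9 bases before the start site. That of Ndufb4 has further NRF1 letters 12 and 181 bases before it. These hits are not marked above. These are matches of letters and were not tested as binding sites.

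The 2 sets of transcripts were first summed for each mouse, tissue and class as the mean over cells of UMIs per 10000. A log2 ratio of mt- to nuclear UMIs above 0 means more mt- molecules. In dLN, B-like cells had the most mt- relative to nuclear UMIs among lymphocytes, with log2 ratios of 1.01, 1.08, 1.11 and 1.01 in WT1, WT2, KO1 and KO2. CD8 T-like cells were lower at 0.59, 0.70, 0.73 and 0.84, and no mouse of the 1 class overlapped the other. CD4 T-like cells spanned 0.55 to 0.90 and pDC-like cells 0.53 to 0.84, so these classes overlapped CD8 T-like cells. Conventional DCs stood near or below 0: cDC2-like cells at -0.26 in WT1, 0.01 in KO1 and -0.14 in KO2, and mature DC-like cells at -0.11, -0.03, -0.24 and 0.01. In cDC1-like cells the ratio was -0.11 in WT1, -0.44 in KO1 and 0.01 in KO2. Every lymphocyte and pDC-like value of dLN thus lay above every conventional DC value. The plasmacytoid cells (pDCs) differed from the other DCs through their mt- sum, 324 to 402 UMIs per 10000 against 166 to 231 in cDC1-like cells, while their nuclear sums were 215 to 229 and 226 to 236.

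**Figure D1:**
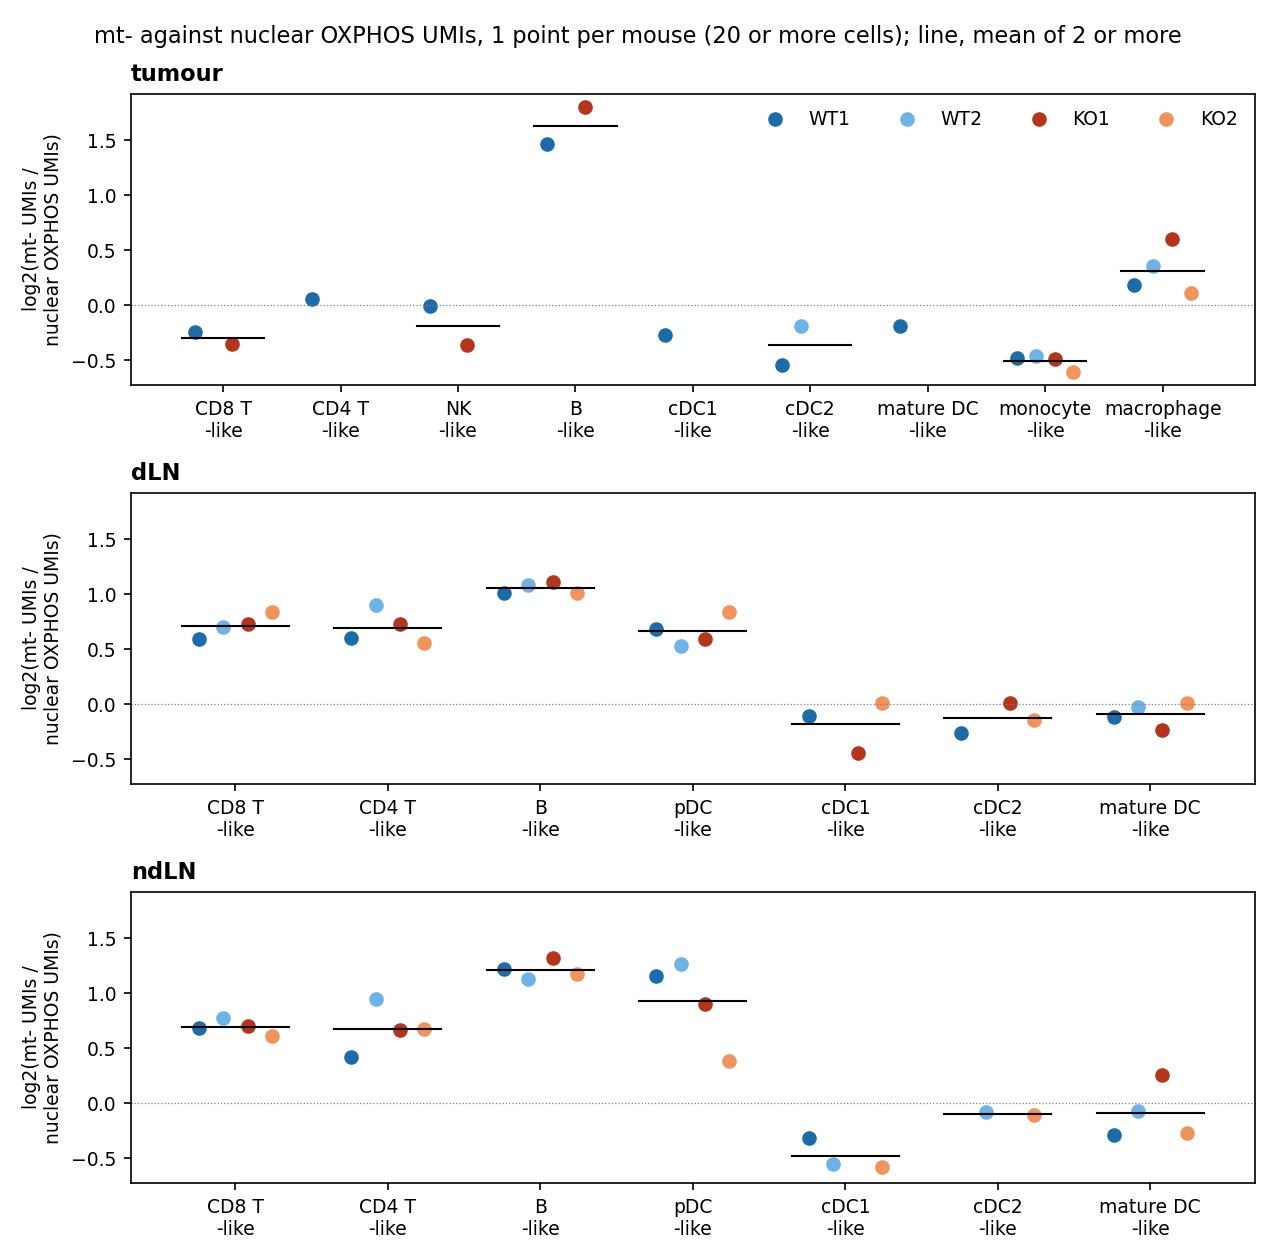
The log2 ratio of mt- to nuclear OXPHOS UMIs (vertical axis) is plotted for each marker-gated class (horizontal axis) in tumour, dLN and ndLN, with 1 point per mouse holding 20 or more cells and a line at the mean where there are at least 2 mice. In dLN every lymphocyte and pDC-like point lies above every conventional DC point, and in tumour the macrophage-like cells lie above 0 and the monocyte-like cells below it.

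In tumour the classes spread more widely. Macrophage-like cells had log2 ratios of 0.18, 0.35, 0.60 and 0.11 in WT1, WT2, KO1 and KO2. Monocyte-like cells had -0.48, -0.46, -0.49 and -0.61, below every macrophage-like value. The highest ratios of the data were those of the few B-like cells of tumour, 1.46 in WT1 (23 cells) and 1.80 in KO1 (20 cells). Of the 43 B-like tumour cells of these mice 30.2% had an mt- share of 5% or more, against 4.09% of B-like cells in dLN.

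**Figure D2:**
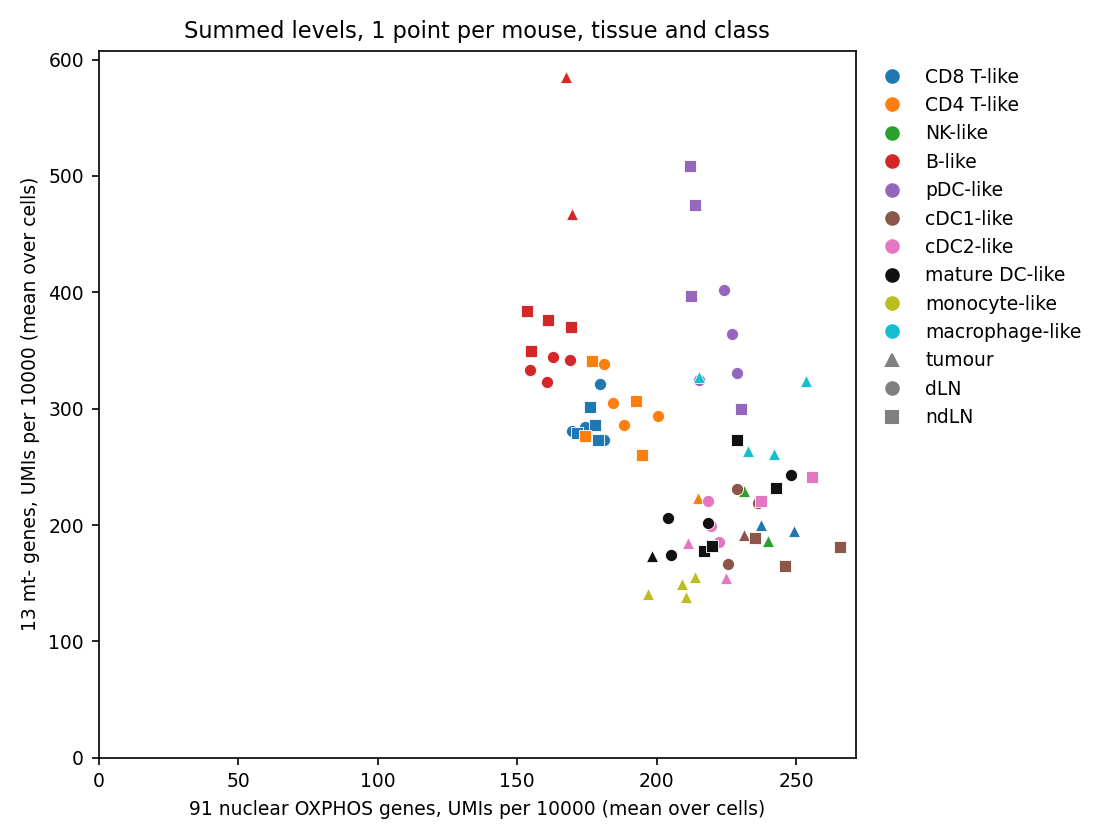
The summed level of the 13 mt- genes (vertical axis, UMIs per 10000, mean over cells) is plotted against that of the 91 nuclear genes (horizontal axis, same unit), with 1 point per mouse, tissue and class, the colour giving the class and the shape the tissue. B-like cells sit at the left with nuclear sums from 154 to 170 and mt- sums above 320, and monocyte-like cells of tumour lie near the bottom with mt- sums from 138 to 155.

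Single members were compared with limma (trend) on log2 of the mean UMIs per 10000 plus 0.1, fitted on every gene with a UMI in at least 5% of the compared cells and adjusted by Benjamini-Hochberg over all of them. A gene is called at an adjusted p under 0.05. Differences between classes or tissues were taken within a mouse, with the mouse as a block. Each fit uses at most 4 mice, and limma draws the variance of each gene towards a trend over all genes tested. A p-value or SE therefore does not measure the spread of that gene between mice alone, and values per mouse are printed beside many of them. UMI levels are not compared between genes. Reads of the mt- genes can be shared with their nuclear copies, those of nuclear members with pseudogenes, and the split between the overlapping mt-Nd4l and mt-Nd4, and between mt-Atp8 and mt-Atp6, is uncertain.

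CD8 T-like cells differed between tumour and dLN in opposite directions in the 2 genomes. Mt- transcripts fell and many nuclear OXPHOS transcripts rose in tumour. The mt- sum was 200, 194.7 and 162.7 UMIs per 10000 in tumour of WT1, KO1 and KO2 (54, 69 and 17 cells), against 272.7, 280.5 and 321.6 in the dLN of the same mice. The nuclear sum was 237.3, 249.3 and 256.8 in tumour against 181.1, 169.7 and 179.8 in dLN. Neither sum overlapped between the tissues. The log2 ratio differed by -0.84 in WT1, by -1.08 in KO1 and by more in KO2, a mean difference of -1.14 ± 0.334 (SD, n = 3 mice). Sums and ratios are given by their values in each mouse, with no p.

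Of the 13 mt- genes, 12 fell in tumour and none rose, where 7.42% of the 7103 genes tested fell and 18.3% rose. mt-Nd2, a membrane subunit of complex I, measured 5.07, 5.87 and 6.53 UMIs per 10000 in tumour of WT1, KO1 and KO2 against 10.6, 11.0 and 11.5 in dLN, lower in every mouse (log2 difference -0.92 ± 0.101 SE, adjusted p = 2.48e-06). mt-Atp8, a small ATP synthase subunit, fell by 0.86 and mt-Cytb, the cytochrome of complex III, fell by 0.72 on the log2 scale. Smaller falls were seen for the catalytic complex IV genes mt-Co1 (-0.53 ± 0.0983, adjusted p = 0.000601) and mt-Co2 (-0.40 ± 0.0889, adjusted p = 0.00297). For the other called mt- genes the values were mt-Atp6 -0.78, mt-Nd4l -0.75, mt-Nd5 -0.74, mt-Nd4 -0.72, mt-Co3 -0.72, mt-Nd3 -0.65 and mt-Nd1 -0.63. mt-Nd6, the gene read from the other strand and present at under 0.5 UMIs per 10000, did not pass (-0.25 ± 0.290, adjusted p = 0.582).

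Nuclear members rose in tumour CD8 T-like cells in 43 of the 87 tested, and 1 fell; 4 of the 91 had too few UMIs to be tested. The median over the 87 was 0.49 on the log2 scale, against 0.149 over all genes tested. Among complex I genes 15 of 36 rose, led by Ndufb7, an accessory subunit whose promoter is printed above. It measured 2.96, 3.18 and 3.72 UMIs per 10000 in tumour against 1.26, 0.950 and 1.27 in dLN (1.43 ± 0.153, adjusted p = 1.86e-06). Ndufs5, another accessory subunit with printed letters, went from 0.585, 0.712 and 0.903 in dLN to 1.78, 1.35 and 1.48 in tumour (0.98 ± 0.194, adjusted p = 0.00109). Both genes were higher in tumour in each mouse, with no overlap. In complex II, Sdhb, the iron-sulphur subunit, rose (0.81) and Sdhc and Sdhd, at 0.52 and 0.55, did not pass.

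Complex III had 6 of 8 genes rising, with Uqcrb, a subunit of the quinone-binding region, at 2.83, 3.53 and 3.21 UMIs per 10000 in tumour against 1.34, 1.33 and 1.46 in dLN (1.15 ± 0.146, adjusted p = 1.31e-05). Complex IV had 10 of 12. Cox5a, an accessory subunit, measured 4.78, 6.07 and 6.32 in tumour against 2.81, 2.61 and 2.98 in dLN (1.00 ± 0.127, adjusted p = 1.31e-05), and Cox8a rose by 0.71. Complex V had 10 of 15, among them Atp5d, the delta subunit of the ATP synthase, at 6.82, 8.05 and 7.46 against 4.11, 3.96 and 4.00 (0.87 ± 0.112, adjusted p = 1.55e-05). Of the assembly factors 1 of 11 rose, Ndufaf7, a methyltransferase for a complex I subunit (0.79 ± 0.280, adjusted p = 0.0469). The member that fell was Cox7a2l, counted here with complex IV. It measured 3.70, 3.40 and 3.04 in tumour against 4.86, 4.78 and 4.91 in dLN, lower in every mouse (-0.51 ± 0.121, adjusted p = 0.00447).

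The share of UMIs taken by cytosolic ribosomal protein genes also differed, at 24.3% to 25.9% in tumour against 42.3% to 44.6% in dLN. When levels were taken per 10000 UMIs outside the mt- and ribosomal protein genes, all genes shifted from a median of 0.149 to -0.177. On that scale 13 nuclear members rose and 3 fell, while 12 mt- genes still fell and none rose. That total lowers every gene's difference, so these counts do not show which group is the more robust. Relative to the median of all genes, the nuclear median was 0.34 higher with the full total and 0.28 higher with the other, and the mt- median differed from it by -0.87 and -0.94. Leaving out WT1 lowered the nuclear calls from 44 to 26. The NK list (Gzma, Prf1, Nkg7, Il2rb) summed to 59.5 to 78.6 in tumour against 8.09 to 9.17 in dLN. CD8 effector cells also express these genes. The macrophage list summed to 0.16 to 0.69 in tumour. Pax5, Cd22, Fcmr and Mrc1 were at 0 there, and Ebf1 reached 0.0308. Across mice Cd74 ran from 1.26 to 12.6 in tumour, H2-Ab1 from 0 to 2.59 and Lyz2 from 0.047 to 1.94. In CD8 T-like cells of dLN these 3 genes reached at most 1.61, 0.185 and 0.292. The part of these marker differences in the result was not tested.

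Of other mitochondrial lists in the same comparison, 21 of 76 mitochondrial ribosome genes rose and 1 fell. Cycs, the cytochrome c that carries electrons from complex III to IV, rose by 1.05 (SE 0.158, adjusted p = 7.64e-05), and Atpif1, the inhibitor of ATP synthase, by 0.83. The TCA cycle list was split, with 2 of 17 up and 2 down, Idh2 (the NADP-dependent mitochondrial isocitrate dehydrogenase) being lower by the widest margin (-1.93 ± 0.282, adjusted p = 5.91e-05). None of 10 genes of mitochondrial transcription and RNA handling and none of 7 regulators of the nuclear genes was called.

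cDC2-like cells of dLN differed from CD8 T-like cells of the same nodes in the same 2 directions. This comparison uses the dLN CD8 T-like samples of the previous one, so the 2 are not independent and their values are given side by side only. The mt- sum was 185.6, 220.5 and 199.1 UMIs per 10000 in cDC2-like cells of WT1, KO1 and KO2, below the 272.7, 280.5 and 321.6 of CD8 T-like cells in each. Nuclear sums were 222.4, 218.5 and 219.4, above 181.1, 169.7 and 179.8. The log2 ratio differed by -0.85 ± 0.134 (SD, n = 3 mice), or -0.83 without cells at 5% or more mt-. WT2 had 13 cDC2-like cells of dLN and was not used. Among cells under 5% mt- UMIs, median UMIs were 12100, 10480 and 10820 in cDC2-like cells of WT1, KO1 and KO2. In CD8 T-like cells of these mice they were 5484, 4934 and 5768, and the part of depth was not tested.

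Here 12 of 13 mt- genes were lower in cDC2-like cells, with 16.9% of 7440 genes tested lower and 23.4% higher. The extent differed between mt- genes, which share their precursors. mt-Nd2 measured 4.14, 3.98 and 4.54 UMIs per 10000 against 10.6, 11.0 and 11.5 (-1.37 ± 0.0772, adjusted p = 9.38e-09). mt-Co1 measured 45.8, 55.9 and 50.9 against 54.4, 55.8 and 65.0 (-0.20 ± 0.0584, adjusted p = 0.0152), with KO1 slightly above its CD8 T-like value and the other 2 mice below. mt-Co2 was close to it at -0.18 ± 0.0594 (adjusted p = 0.0247). Intermediate values were found for mt-Nd3 (-0.90), mt-Nd1 (-0.90), mt-Atp8 (-0.89), mt-Nd4l (-0.87), mt-Atp6 (-0.85), mt-Cytb (-0.61), mt-Nd4 (-0.54), mt-Co3 (-0.46) and mt-Nd5 (-0.38). mt-Nd6 at -0.35 did not pass.

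Nuclear members were higher in 38 and lower in 3 of the 87 tested. Complex I contributed 15 higher genes. Ndufb8 measured 3.24, 2.79 and 2.73 UMIs per 10000 in cDC2-like cells against 1.13, 0.926 and 1.17 in CD8 T-like cells (1.36 ± 0.123, adjusted p = 9.25e-07), and Ndufc2 measured 2.93, 2.71 and 2.86 against 1.08, 0.974 and 1.14 (1.33 ± 0.117, adjusted p = 7.28e-07). Both encode accessory subunits of the complex I membrane arm, and neither overlapped between the classes. Sdhc and Sdhb of complex II were higher by 0.71 and 0.42. In complex III Uqcrb and Uqcr11 were higher by 1.02 and 0.99, Uqcr11 (ETS letters above) at 2.17, 2.25 and 2.26 against 1.01, 0.884 and 1.37. Complex IV had 9 of 12 higher, including Cox6b1 (0.75), Cox5b (0.58) and Cox6a1 (0.55), the last at 3.67, 3.55 and 3.54 against 2.54, 2.30 and 2.45. Atp5l, a membrane subunit of the ATP synthase, was higher by 0.61. The lower members were Cox7a2l (-0.50 ± 0.0894, adjusted p = 0.000503), Ndufv3 (-0.37) and Uqcrh, the hinge protein of complex III (-0.32).

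On the total without mt- and ribosomal protein genes, all genes shifted in this comparison from a median of 0.0504 to -0.29, all 13 mt- genes were lower, and of the nuclear members 5 were higher and 17 lower. The nuclear median went from 0.29 to -0.15, a change of sign that comes with the shift of all genes. Relative to the median of all genes it was 0.24 higher with the full total and 0.14 higher with the other, and the mt- median differed from it by -0.66 and -0.75. Ribosomal protein genes took 23.5% to 24.9% of UMIs in these cDC2-like cells. From the other lists, Fh1, the fumarase of the TCA cycle, was higher in cDC2-like cells by 2.51 (SE 0.186, adjusted p = 1.45e-07), Atpif1 by 1.93, Ucp2 (an inner membrane carrier) by 1.19 and Slirp, a stabiliser of mt- mRNA, by 1.16. Myc was lower by 1.83 (log2 difference -1.83 ± 0.249, adjusted p = 4.65e-05). The TCA list as a whole had 2 of 17 higher and 1 lower.

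**Figure D3:**
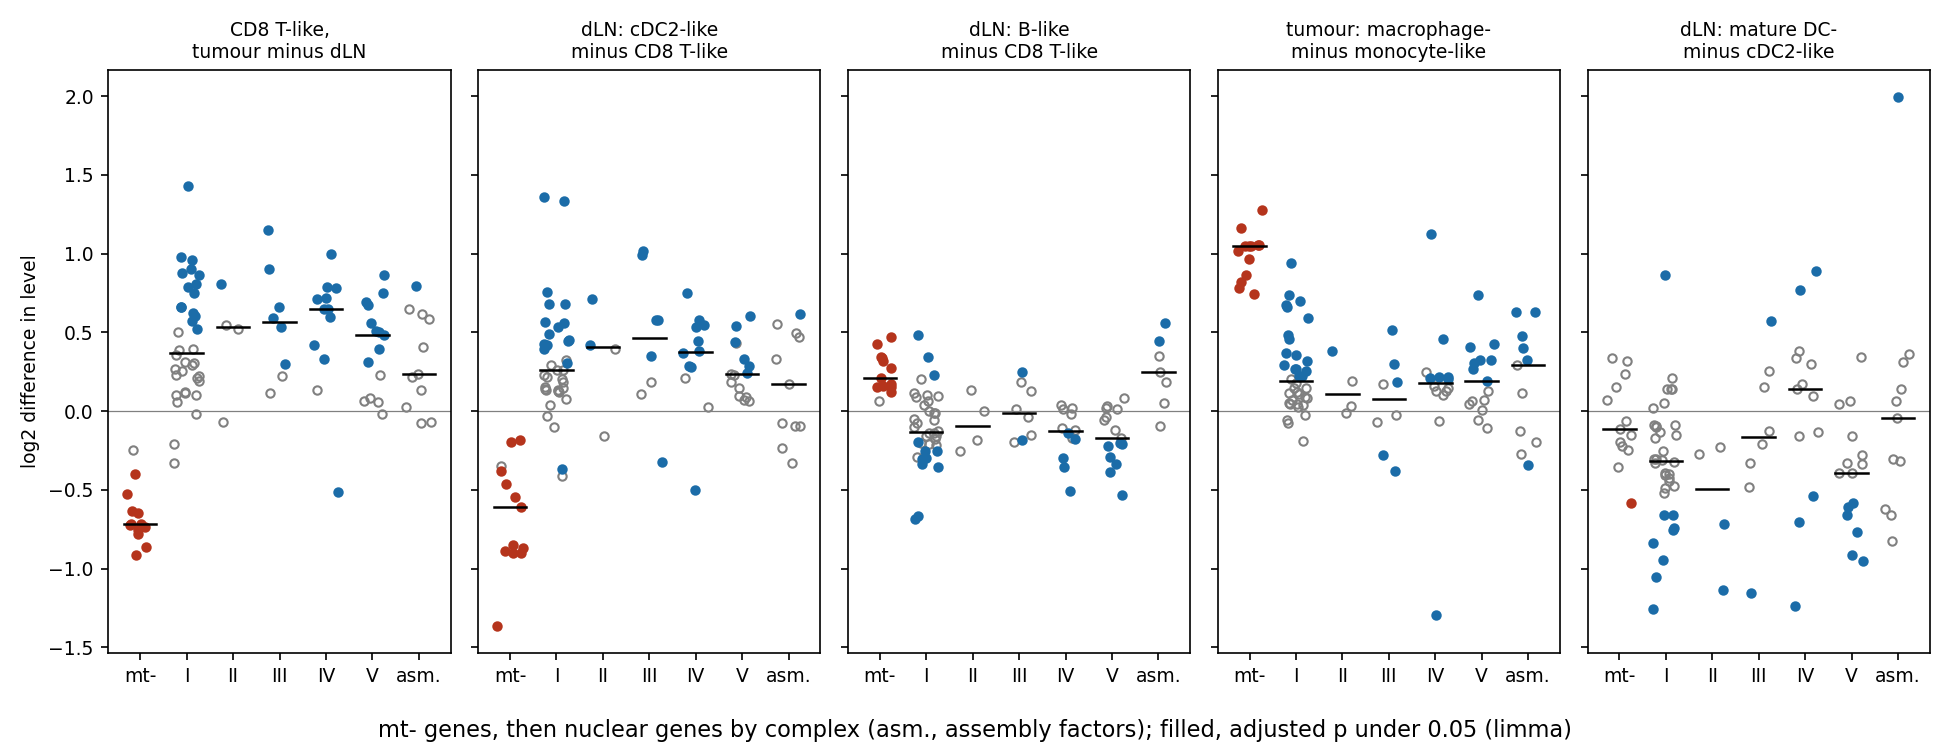
Each point is 1 OXPHOS gene, with its log2 difference in level (vertical axis) in 5 comparisons, grouped along the horizontal axis into mt- genes and nuclear genes of complexes I to V and assembly factors (asm.); filled points have an adjusted p under 0.05 and the lines are medians. In the first 2 panels mt- genes lie below 0 and most nuclear genes above it, in the third mt- genes lie above 0, and in the fourth the mt- genes lie above the medians of the nuclear groups.

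B-like cells of dLN differed from CD8 T-like cells in the opposite sense. The mt- sum was 341.4, 344.8, 332.8 and 323.1 UMIs per 10000 in B-like cells of WT1, WT2, KO1 and KO2 against 272.7, 283.9, 280.5 and 321.6 in CD8 T-like cells, so it was higher in all 4 mice, by 52.3 to 68.7 in 3 of them and by 1.52 in KO2. The nuclear sum was lower in every mouse (169.0, 162.9, 154.5 and 160.9 against 181.1, 174.4, 169.7 and 179.8). The log2 ratio differed by 0.42, 0.38, 0.38 and 0.17, a mean of 0.34 ± 0.115 (SD, n = 4).

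Of the mt- genes 12 of 13 were higher and none lower, in a comparison with 34% of 6491 genes tested higher and 16.3% lower. Only 5 of the 12 were higher in every mouse: mt-Nd5, mt-Co2, mt-Nd3, mt-Cytb and mt-Co3. The share of all genes higher in every mouse is not given here. Of the other called genes, mt-Nd6 was lower in B-like cells in WT2, and the rest were lower in KO2. In KO2 mt-Atp6 measured 58.3 against 60.5 in CD8 T-like cells and mt-Co1 61.6 against 65.0. mt-Nd5, a proton-pumping subunit of complex I, measured 7.65, 7.41, 6.96 and 6.27 UMIs per 10000 in B-like cells against 5.04, 4.87, 4.92 and 5.48 (0.47 ± 0.0617, adjusted p = 3.50e-10). mt-Co2 measured 53.8, 52.0, 53.0 and 48.3 against 38.3, 39.2, 40.4 and 45.8 (0.34 ± 0.0401, adjusted p = 7.06e-12). For the rest the differences were mt-Nd6 0.43, mt-Nd3 0.34, mt-Cytb 0.32, mt-Co3 0.27, mt-Nd4 0.21, mt-Atp8 0.17, mt-Atp6 0.16, mt-Nd1 0.16, mt-Nd4l 0.15 and mt-Co1 0.12. mt-Nd2 at 0.07 was the gene that did not pass, although mt-Nd2 was the mt- gene with the widest difference in both comparisons above.

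Among 83 nuclear members tested, 22 were lower and 7 higher in B-like cells, and 54 did not pass. Lower genes came from complex I (9 of 36), complex III (1 of 8, Uqcrh at -0.19), complex IV (5 of 12) and complex V (7 of 15). Ndufv3, an accessory subunit of the NADH-binding module, was lower at 1.06, 1.07, 0.921 and 1.04 UMIs per 10000 against 1.71, 1.54, 1.78 and 1.82 (-0.69 ± 0.0924, adjusted p = 6.68e-10). Ndufa10 was lower by 0.67 (log2 difference -0.67), Atp5h of the ATP synthase stalk by 0.53 (-0.53 ± 0.0654, adjusted p = 3.39e-11) and Cox7a2l by 0.51 (-0.51 ± 0.0674, adjusted p = 5.58e-10). All 3 genes encoding subunit c of the ATP synthase rotor, Atp5g1 (-0.39), Atp5g2 (-0.22) and Atp5g3 (-0.20), were lower. The higher genes were Atp5sl, an assembly factor for complex I despite its symbol (0.97 ± 0.145, adjusted p = 1.38e-08), Sdhaf2 and Sdhaf1, assembly factors of complex II (0.56 and 0.45), Ndufs8 (0.48), Ndufs7 (0.35), Uqcrc1 (0.25) and Ndufb8 (0.23).

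The call of the mt- genes depends on the total. Without mt- and ribosomal protein genes in it, 1 mt- gene was higher (mt-Nd5, 0.22) and 3 were lower (mt-Nd2 -0.20, mt-Co1 -0.13 and mt-Nd4l -0.11), and 60 nuclear members were lower and 3 higher; all genes shifted from a median of 0.158 to -0.0439. Relative to the median of all genes, the mt- median was 0.050 higher with the full total and differed by -0.012 with the other, and the nuclear median differed by -0.26 and -0.33. Cox7a2l differed from dLN CD8 T-like cells by -0.51 in B-like cells, -0.50 in cDC2-like cells and -0.51 in tumour CD8 T-like cells, 3 comparisons that share the dLN CD8 T-like samples. Of the mitochondrial ribosome genes 5 of 75 were higher and 10 lower. From the list of mitochondrial transcription and RNA handling 2 of 8 genes were higher, a smaller share than the 34% of all genes. These were Tfam, which packages and transcribes mitochondrial DNA (0.92 ± 0.132, adjusted p = 5.66e-09), and Polg, the mitochondrial DNA polymerase (0.65). Nrf1 (0.55), Gabpb1 (0.43) and Myc (1.61) were the 3 of 6 regulators that were higher. Fh1 was higher by 1.52, while Idh2 (-1.07) and Slc25a4, an ADP/ATP carrier (-0.99), were lower. Jchain and Mzb1, plasma cell genes, summed to 4.15 to 22.6 UMIs per 10000 in B-like cells of dLN, and their part was not tested. Among cells under 5% mt- UMIs, median UMIs per mouse were 2962 to 3467 in B-like and 4934 to 5768 in CD8 T-like cells. The part of depth was not tested either.

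**Figure D4:**
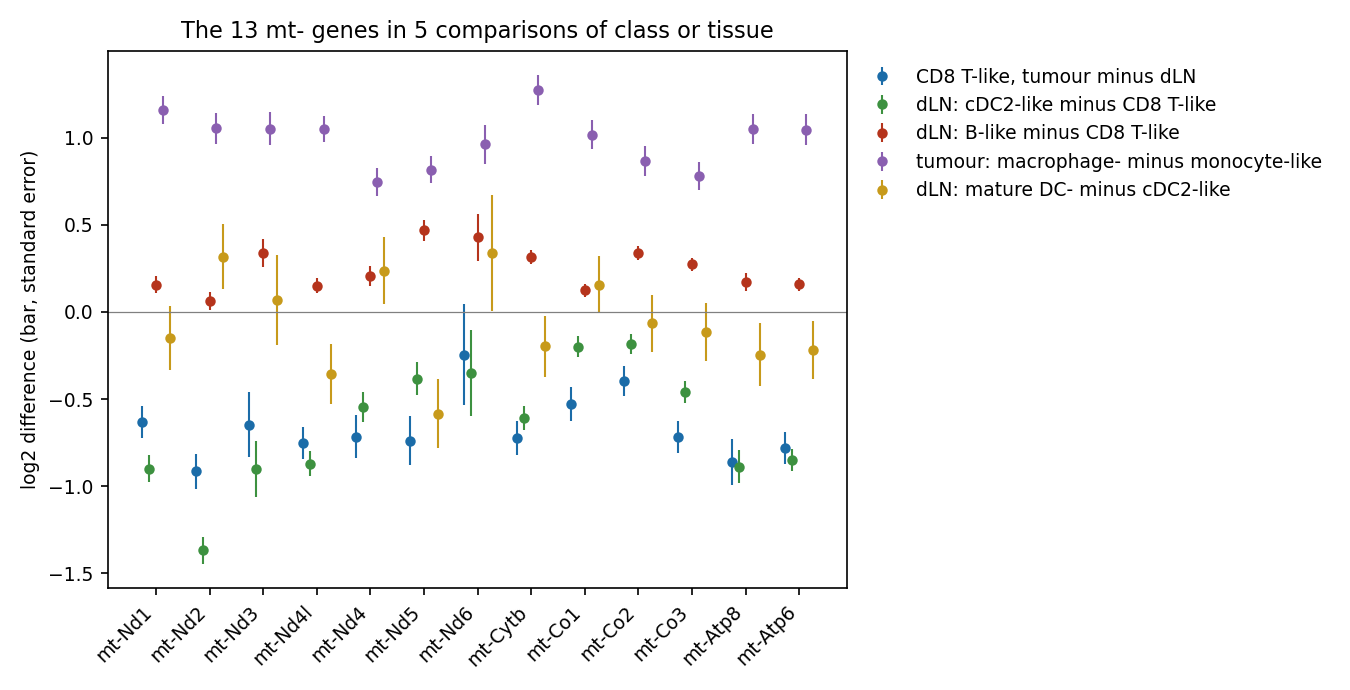
The log2 difference in level of each of the 13 mt- genes (vertical axis, with standard error as bar) is shown for 5 comparisons of class or tissue (colours), with genes along the horizontal axis. The differences of one comparison are not equal between genes: for cDC2-like minus CD8 T-like cells they run from -1.37 for mt-Nd2 to -0.18 for mt-Co2.

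The make-up of the mt- UMIs differed between classes as well. mt-Nd2 made up 3.77% ± 0.164 (SD, n = 4) of the mt- UMIs of dLN CD8 T-like cells and 3.40% ± 0.151 of those of B-like cells, but 2.10% in cDC2-like and 1.69% in cDC1-like cells of dLN. mt-Co1 made up 20.05% ± 0.140 in CD8 T-like cells, 18.84% ± 0.170 in B-like cells and 29.4% ± 1.08 in mature DC-like cells of dLN. These shares are ratios of mean levels, so other genes enter them only through the total that scales each cell.

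Macrophage-like cells of tumour had more of both sets of transcripts than monocyte-like cells. The mt- sum was 263.3, 324.0, 327.0 and 261.2 UMIs per 10000 in macrophage-like cells of WT1, WT2, KO1 and KO2 against 149.4, 155.4, 140.5 and 138.2 in monocyte-like cells, and the nuclear sum was 232.6, 253.6, 215.3 and 242.2 against 209.1, 214.0, 196.8 and 210.7. Both were higher in each of the 4 mice. The log2 ratio differed by 0.66, 0.81, 1.09 and 0.72 (mean 0.82 ± 0.189 SD, n = 4).

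All 13 mt- genes were called higher, with 24.1% of 9262 genes tested higher and 20.2% lower. mt-Cytb measured 29.9, 37.8, 35.9 and 30.5 UMIs per 10000 against 14.9, 14.8, 12.9 and 12.5 (1.28 ± 0.0844, adjusted p = 1.77e-08). mt-Nd1 measured 10.7, 14.3, 12.4 and 10.4 against 5.71, 5.74, 4.93 and 4.72 (1.16 ± 0.0810, adjusted p = 3.14e-08). For the rest the log2 differences ran from 0.75 for mt-Nd4 to 1.05 for mt-Nd2, mt-Nd3 and mt-Atp8. The groups did not overlap for either named gene.

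The classes differed in how many cells had a high mt- share. Of the 2154 macrophage-like cells, 143 (6.64%, and 5.70% to 7.69% per mouse) had 5% or more mt- UMIs, against 7 of 685 monocyte-like cells (1.02%). These macrophage-like cells were shallow, with median UMIs of 2064 to 6660 per mouse against 19090 to 20140 in the others. Without them the log2 ratio was -0.55, -0.42, -0.53 and -0.46 in macrophage-like cells and -0.56, -0.50, -0.58 and -0.70 in monocyte-like cells, and the difference was 0.0949. Such cells are set apart by the mt- share itself, which enters the ratio, so values without them describe the remaining cells and test no cause. On those cells 9 of the 13 mt- genes were still called higher, mt-Cytb at 0.55 (SE 0.0808) and mt-Nd1 at 0.41. mt-Co3 (0.12), mt-Nd3 (0.22), mt-Nd4 (0.10) and mt-Nd5 (0.17) were not. The share of all genes called on those cells is not given here, for this count or for the nuclear count below.

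Nuclear members were higher in 40 and lower in 4 of the 89 tested, and in 46 and 3 without the cells of high mt- share. Complex I had 17 of 36 higher, among them Ndufa12, a late-assembled accessory subunit, at 1.34, 1.45, 1.17 and 1.27 UMIs per 10000 against 0.651, 0.594, 0.559 and 0.739 (0.94 ± 0.0904, adjusted p = 9.15e-07), and Ndufab1, which is also the mitochondrial acyl carrier protein (0.74). In complex V 8 of 15 were higher, with all 3 subunit c genes among them: Atp5g2 0.74, Atp5g1 0.41 and Atp5g3 0.32. Atp5g2 stood at 7.26, 8.11, 6.85 and 7.64 against 4.37, 4.41, 4.73 and 4.21. Complex III was mixed, with 3 of 8 higher (Uqcr11 0.52, Uqcr10 0.30, Uqcrb 0.19) and 2 lower, Uqcrfs1, the Rieske iron-sulphur protein (-0.38 ± 0.0747, adjusted p = 0.000766), and Uqcrh (-0.28). From the assembly factors Ndufaf4 and Sdhaf4 were higher by 0.63 each, and Ndufaf7 was lower (-0.34).

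The nuclear members with the widest differences were a pair of complex IV genes, in opposite directions. Ndufa4, a complex IV subunit once assigned to complex I, was lower in macrophage-like cells in every mouse, at 0.986, 0.939, 0.784 and 0.903 UMIs per 10000 against 2.39, 2.50, 2.32 and 2.22 (-1.30 ± 0.0788, adjusted p = 7.74e-09). Cox4i2, the hypoxia-associated form of subunit IV, was higher, at 0.262, 0.169, 0.243 and 0.346 against 0.0371, 0.107, 0.0650 and 0.0410 (1.12 ± 0.169, adjusted p = 7.77e-05). Its levels were low, and the log2 difference with 0.1 added understates the change of so low a gene. Both calls were made without the cells of high mt- share too, at -1.32 for Ndufa4 and 1.15 for Cox4i2. Cox4i1, the common form, and Cox7a2l were not called.

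The other lists moved upward in macrophage-like cells in part: 46 of 76 mitochondrial ribosome genes were higher and 1 lower. Atpif1 (1.12 ± 0.0902, adjusted p = 1.43e-07), Slc25a4 (1.00), Fh1 (0.72), Idh2 (0.67) and Vdac1, the outer membrane channel (0.61), were higher, and Cycs (-0.29) and Slc25a5, another ADP/ATP carrier (-0.29), were lower. Median UMIs per cell were 18720 to 19502 in macrophage-like cells and 9212.5 to 9735.5 in monocyte-like cells. Of checked markers, Apoe stood at 56.3 to 72.4 against 12.5 to 15.7 UMIs per 10000, and Lyz2 at 88.8 to 108 against 120 to 161. The part of depth in the result was not tested.

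Mature DC-like and cDC2-like cells of dLN had the same ratio within the spread between mice (difference 0.02 ± 0.231 SD, n = 3; 0.15 in WT1, -0.25 in KO1 and 0.15 in KO2), but single members differed strongly. Mature DCs are those that have taken up a migratory, CCR7-expressing state. Of the mt- genes 1 of 13 was called, mt-Nd5, at 2.91, 2.39 and 2.47 UMIs per 10000 against 3.60, 4.37 and 3.82 (-0.58 ± 0.199, adjusted p = 0.0208), a call lost without KO1. Nuclear members were lower in 20 and higher in 5 of the 88 tested, with 20% of 8188 genes tested lower, 12% higher and a median over all of -0.178. The share of nuclear members called lower was thus close to that of all genes, and the share called higher was below it. The calls below describe single genes and do not set the nuclear members apart as a group.

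The widest rise was that of Sdhaf1, which helps insert iron-sulphur clusters into complex II. It measured 2.38, 2.12 and 1.36 UMIs per 10000 in mature DC-like cells of WT1, KO1 and KO2 against 0.301, 0.512 and 0.414 in cDC2-like cells (2.00 ± 0.259, adjusted p = 5.13e-08). Of the 4 complex II genes, Sdhc (-1.13 ± 0.305, adjusted p = 0.00336) and Sdhb (-0.71) were lower, and Sdha (-0.27) and Sdhd (-0.23) did not pass. Sdhc stood at 0.248, 0.205 and 0.267 against 0.590, 0.718 and 0.629. Sdhaf1 also had the widest range over the 7 dLN classes of members whose level reached 1 somewhere, from 0.214 in cDC1-like to 2.03 in mature DC-like cells.

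Complex I had 8 of 36 genes lower, such as Ndufb2 (-1.26 ± 0.263, adjusted p = 0.000203) and Ndufs8, an iron-sulphur subunit (-1.05), and 1 higher. This was Ndufb4, whose NRF1 letters are printed above, at 2.83, 2.63 and 3.04 against 1.57, 1.42 and 1.54 (0.86 ± 0.210, adjusted p = 0.00127). In complex III Uqcrc1, a core protein, was lower (-1.16) and Uqcrh higher (0.57). Complex IV was split between Cox5a and Cox7c, higher by 0.89 and 0.77, and Cox6b2, Ndufa4 and Cox7b, lower at -1.24, -0.70 and -0.54. Cox5a stood at 7.75, 7.51 and 7.81 against 4.14, 3.68 and 4.52, and Cox7c at 9.69, 9.56 and 8.79 against 5.10, 5.53 and 5.70. Complex V had 6 of 15 lower and none higher, with Atp5g1 (-0.95), Atp5a1 (-0.91), Atp5g3 (-0.77), Atp5b (-0.66), Atp5d (-0.61) and Atp5o (-0.58). Leaving out WT1 lowered the nuclear calls from 25 to 14.

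The TCA cycle list was lower in 8 of 17 genes and higher in none (median -0.70), with Fh1 (-2.19 ± 0.273, adjusted p = 2.00e-08), Idh2 (-1.79) and Idh3a (-1.52) lower by the most. Of 7 regulators Nrf1 (-1.23), Myc (-1.21) and Pprc1 (-0.96) were lower. Slc25a5 (-1.25) and Cycs (-1.10) were lower, and Atpif1 was higher (0.59). Mature DC-like cells had fewer UMIs, a median of 6009 to 8534 per mouse over the 4 mice against 10424 to 12100, and the part of depth in these values was not tested.

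Over the 7 classes of dLN, the members' levels were ranked by mean over mice as a description. Among mt- genes the highest class was B-like for 8 and pDC-like for 5, and the lowest was mature DC-like for 7, cDC1-like for 3 and cDC2-like for 3. Among the 91 nuclear genes the highest class was pDC-like for 27, cDC1-like for 24, mature DC-like for 15, cDC2-like for 14, CD8 T-like for 4, CD4 T-like for 4 and B-like for 3. B-like cells were the lowest class for 37 nuclear genes. Of 49 nuclear members with at least 1 UMI per 10000 in every class, the median of the highest over the lowest class was 1.75, against 2.23 for 11 such mt- genes. Cox5a (3.19), Uqcrb (2.98) and Ndufc2 (2.93) varied most among these nuclear genes, and Atp5g2 (1.35) and Ndufb5 (1.32) varied little.

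In a comparison of KO with WT mice, no member passed the threshold in any of 5 classes, with limma (trend) or with limma-voom and no block. With the channel as a block, which pairs 1 mouse of each genotype, mt-Nd3 (-0.39 ± 0.104) and Ndufs8 (-0.34 ± 0.0937) were called lower in macrophage-like cells of KO mice, and no member was called in monocyte-like, CD8 T-like or B-like cells. The share of all genes called with that block is not given here, so these calls have no general rate beside them. mt-Nd3 measured 1.78 and 3.47 UMIs per 10000 in WT1 and WT2 against 1.96 and 1.80 in KO1 and KO2, so the genotypes overlapped. Havcr2 encodes TIM-3, a checkpoint receptor found on T cells, macrophages and DCs, and the study asks what its loss changes in anti-tumour immunity. Genotypes were compared as 2 WT against 2 KO mice, or 1 against 2 for cDC2-like cells. Without a block, 3 of all 9477 genes tested (0.0317%) were called in macrophage-like cells, 0.0211% higher and 0.0106% lower. The share was 0.025% in monocyte-like cells, 0.0347% in cDC2-like cells, 0.0447% in CD8 T-like cells and 0.066% in B-like cells. The design without a block therefore called few genes of any kind. At an unadjusted p under 0.05 the mt- genes numbered 0 in macrophage-like cells (6.22% of all genes), 1 in monocyte-like cells (5.36%), 2 in cDC2-like cells (5.55%), 2 in CD8 T-like cells (5.14%) and 0 in B-like cells (6.4%). Nuclear members at that p numbered 2, 0, 0, 1 and 0.

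In macrophage-like cells the mt- sum of WT mice (263.3 and 324.0 UMIs per 10000) lay between those of KO1 (327.0) and KO2 (261.2), so the genotypes did not separate. The ratio differed by 0.09 ± 0.262 (pooled SD). The smallest p-values among nuclear members were those of Ndufs8 (1.08 and 1.09 in WT against 0.849 and 0.822 in KO, -0.34 ± 0.103, adjusted p = 0.752 without the channel block that called it) and Ndufaf4, a complex I assembly factor (-0.38 ± 0.121, adjusted p = 0.752). Neither overlapped between genotypes, and 23.2% of all genes lay lower in both KO mice.

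In monocyte-like cells the mt- sum was 149.4 and 155.4 in WT against 140.5 and 138.2 in KO, with no overlap. Of the mt- genes 9 lay lower in both KO mice, as did 19.5% of all genes, and none passed. mt-Nd3 had the smallest p (1.04 and 1.41 against 0.731 and 0.897, -0.52 ± 0.177, adjusted p = 0.882). The log2 ratio differed by -0.07 ± 0.062, by -0.1450 as a mean of per-cell ratios and by -0.0032 with stricter gates.

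In cDC2-like cells of dLN 9 mt- genes lay higher in both KO mice than in the WT mouse, as did 34.8% of all genes. mt-Atp6 measured 26.1 in WT1 against 32.5 and 29.8 (0.25 ± 0.108, adjusted p = 0.875), and mt-Co1 45.8 against 55.9 and 50.9 (0.22 ± 0.0974, adjusted p = 0.881). The ratio differed by 0.20 ± 0.109, and by -0.0376 without the 3 of 139 cells with 5% or more mt- UMIs. For CD8 T-like cells of dLN the ratio was higher in both KO mice (0.14 ± 0.080), by 0.0374 without such cells. The member with the smallest p was mt-Nd3, at 2.012 and 2.963 in WT against 1.534 and 2.045 in KO (-0.44 ± 0.166, adjusted p = 0.918). Its mean was lower in KO mice, with overlap between genotypes. mt-Co2 measured 38.3 and 39.2 in WT against 40.4 and 45.8 in KO (0.15 ± 0.0658, adjusted p = 0.918), and Sdha, the flavoprotein of complex II, 0.932 and 0.903 against 1.18 and 1.18 (0.33 ± 0.136, adjusted p = 0.918). In B-like cells of dLN the mt- sum was 341.4 and 344.8 in WT against 332.8 and 323.1 in KO, with no overlap, the ratio differed by 0.01 ± 0.061, and 5 mt- genes lay lower in both KO mice, as did 12.2% of all genes.

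**Figure D5:**
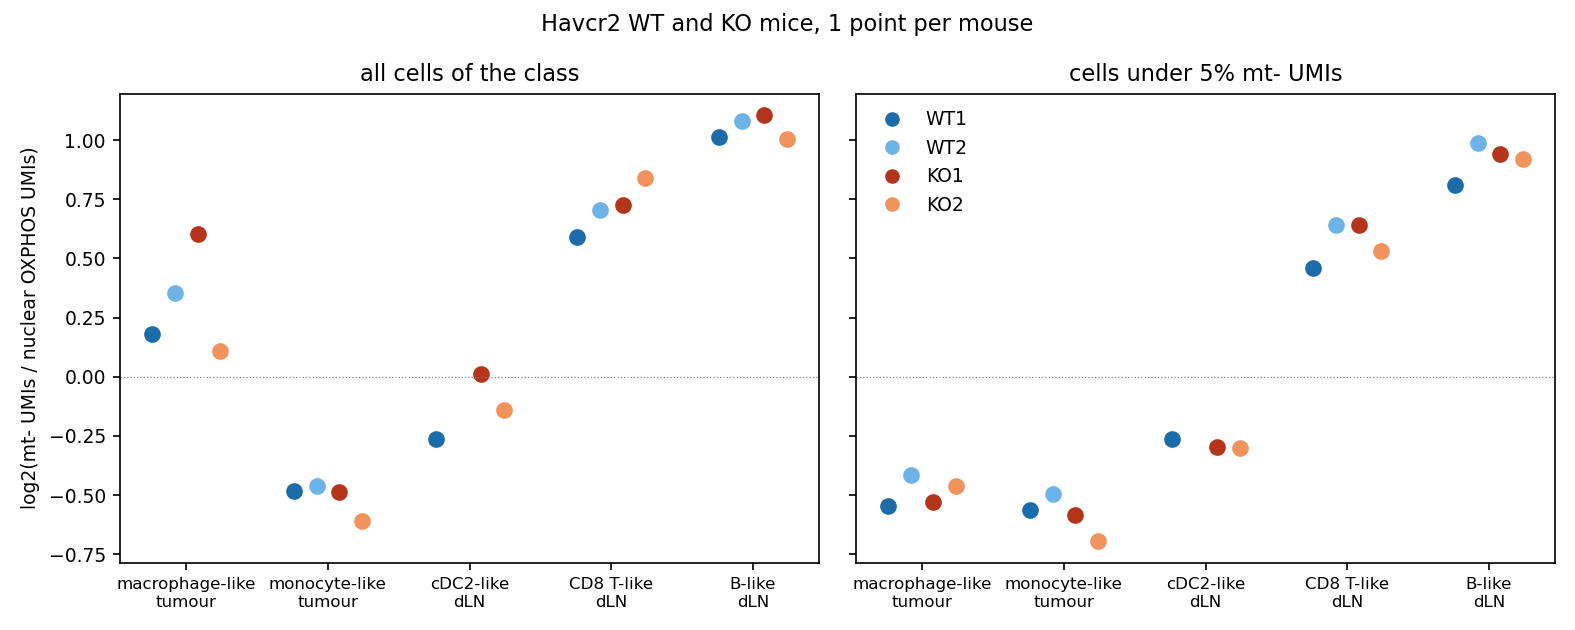
The log2 ratio of mt- to nuclear OXPHOS UMIs (vertical axis) is plotted with 1 point per mouse in 5 classes (horizontal axis), for all cells on the left and for cells under 5% mt- UMIs on the right. In the left panel macrophage-like points lie above 0 and monocyte-like points below it, and the macrophage-like points move to between -0.55 and -0.42 when the cells of high mt- share are left out.

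Draining and non-draining nodes were compared within mice. In CD8 T-like cells no member was called, with 0.0592% of 6755 genes called in all, 0.0148% higher and 0.0444% lower. At an unadjusted p under 0.05 there were 2 members, both nuclear, where 5.33% of all genes reached it. Of the 86 nuclear members tested 6 were higher in dLN in every mouse and 7 lower, against 7.02% and 5.79% of all genes. The ratio differed by -0.09, -0.07, 0.02 and 0.23 in WT1, WT2, KO1 and KO2 (mean 0.02 ± 0.148 SD), and no mt- gene moved the same way in all 4 mice. Ndufs8 (0.31 ± 0.114, adjusted p = 0.837) and Ndufv1, the NADH-binding subunit (0.29 ± 0.120, adjusted p = 0.850), were the members with the smallest p, higher in dLN in each mouse.

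In B-like cells the mt- genes lay slightly lower in the draining node. The mt- sum was 34.4, 25.3, 51.5 and 26.6 UMIs per 10000 lower in dLN than in ndLN in WT1, WT2, KO1 and KO2 (mean difference -34.4 ± 12.0 SD, n = 4). By single gene 12 of 13 mt- genes were lower in every mouse, as were 5.71% of 5992 genes (7.56% were higher in every mouse), and 11 had an unadjusted p under 0.05 (4.96% of all genes). No gene of any kind passed adjustment (0% called). mt-Nd1 measured 15.7, 16.4, 16.0 and 14.2 in dLN against 17.8, 19.2, 18.5 and 16.8 in ndLN (-0.21 ± 0.0436, adjusted p = 0.479). Cells at 5% or more mt- made up 4.09% of B-like cells in dLN (65 of 1590) and 7.48% in ndLN (60 of 802), and without them the ratio difference went from -0.16 to -0.0757. cDC2-like cells could not be fitted between nodes, since 1 mouse had 20 or more cells in both.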

How the data were processed

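Single-cell RNA-seq of CD45+ cells from 12 samples was analysed. The authors aligned reads with Cell Ranger 3.0.2 to mm10, per the submitters' processing notes. The deposited matrix holds natural log values, the log of 1 plus UMIs per 10000 of a cell, and the UMIs of each cell were recovered from it because all values are whole multiples of 1 UMI within 0.01. Mouse and tissue came from the deposited cell table. Cells were classed by marker genes, and those in more than 1 class left out. No doublet caller was run.

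Levels were the mean over cells of UMIs per 10000 in each mouse, for mice with at least 20 cells (10 for CD8 T-like cells of tumour against dLN). limma 3.58.1 with a trend (R 4.3.3) was run on log2 of the level plus 0.1, over genes with a UMI in at least 5% of compared cells, and p-values were adjusted by Benjamini-Hochberg over all of them. Class and tissue comparisons carried the mouse as a block, because both samples come from the same mouse. Genotypes were compared without a block. limma was checked on simulated data.

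Named genes were every mt- gene, chosen paralogs, and per comparison up to 10 called members in each direction that differed the same way in every mouse, ranked by size, or the smallest p-values where fewer than 3 passed. A few others were named after their values were seen. Members and lists were chosen with earlier results of these data known. Alternatives covered limma-voom, another scaling total, pseudocount and filters, the cells of high mt- share, stricter gates and each mouse left out. P-values rest on 2 mice per genotype, or 3 to 4 mice in paired comparisons, with each variance drawn towards a trend over all genes.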

Additional observations from a re-analysis of the deposited data

Results flagged for a closer look

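In monocyte-like cells of tumour the log2 ratio of mt- to nuclear UMIs of KO2 was -0.6081, apart from -0.49, -0.48 and -0.46 in the other mice. In pDC-like cells of ndLN the nuclear sum of KO2 was 230.1 UMIs per 10000, apart from 212.2 to 213.7 in the other mice. These were the 2 of 36 groups of 4 mice in which 1 mouse stood far from the rest, and chance gives about 1 in 20.

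Among 15 differences between nodes, 3 went one way in both WT mice and the other way in both KO mice. For CD8 T-like cells the dLN minus ndLN difference of the mt- sum was 40.39 UMIs per 10000 higher in the KO mean than in the WT mean, and that of the log2 ratio was 0.2101 higher. For mature DC-like cells the difference of the nuclear sum was lower in the KO mean, at -23.02 UMIs per 10000. Both CD8 T-like differences use the mt- sum, so they are not independent. These differences between genotypes were not tested, and their number was not set against a chance rate.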

How the results depend on the processing

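The mouse block of the paired comparisons (same mouse, both samples) was also left out. Without it the called mt- and nuclear members numbered 13 and 37 for macrophage-like minus monocyte-like cells, 9 and 23 for B-like minus CD8 T-like cells, 10 and 41 for cDC2-like minus CD8 T-like cells, 1 and 22 for mature DC-like minus cDC2-like cells, and 12 and 46 for CD8 T-like cells of tumour minus dLN. For genotypes, the channel block called 1 mt- gene (mt-Nd3, -0.39) and 1 nuclear gene (Ndufs8, -0.34) in macrophage-like cells.

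Called nuclear members for B-like minus CD8 T-like cells numbered 16 with limma-voom, 56 with a mean of log values and 63 with the total without mt- and ribosomal protein genes, and mt- genes 6 and 4 with the latter choices. For cDC2-like minus CD8 T-like cells the nuclear calls were 64 and 22 under these choices, and for CD8 T-like cells of tumour minus dLN 16 with the other total. For mature DC-like minus cDC2-like cells the mt- calls were 4 with limma-voom, 2 with a mean of log values and 2 without cells of 5% or more mt- UMIs.

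The log2 ratio of macrophage-like minus monocyte-like cells was 0.2049 as a mean of per-cell log2 ratios, 0.0949 without cells of high mt- share, 0.5740 with stricter gates and 0.2777 from pooled UMIs, the last chosen after seeing the data. KO minus WT in monocyte-like cells was -0.1450 by per-cell ratios and -0.0032 with stricter gates. In cDC2-like cells it was 0.0648 by per-cell ratios, 0.0842 with stricter gates, 0.010 from pooled UMIs, and reversed at -0.0376 without cells of high mt- share. In CD8 T-like cells it was 0.0374 without those cells and 0.0312 from pooled UMIs, and for nodes in B-like cells -0.0757 without them.

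Leaving out 1 mouse at a time gave, for mt- and nuclear calls, 7 to 12 and 22 to 27 (B-like minus CD8 T-like), 9 to 13 and 33 to 36 (cDC2-like minus CD8 T-like), 13 and 32 to 47 (macrophage-like minus monocyte-like), 0 to 1 and 14 to 22 (mature DC-like minus cDC2-like), and 11 to 12 and 26 to 44 (CD8 T-like, tumour minus dLN). For KO minus WT, leaving out 1 mouse leaves 1 genotype with 1 mouse, so only differences are given. That of mt-Nd3 was -0.85 in macrophage-like and -0.62 in B-like cells without WT1. Without KO2 it was -0.64 in CD8 T-like cells. All 3 fits keep WT2, in which mt-Nd3 was highest in 11 of 12 class and tissue pairs, so they are not independent. The ratio of KO minus WT then ran from -0.157 to 0.3369 in macrophage-like cells. The cause of these changes was not tested. For the counts of calls in this section, the share of all genes called is not given. The cDC2-like comparison between nodes was not run.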

Other observations

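mt-Nd3, a small complex I subunit gene, was highest in WT2 in 11 of 12 class and tissue pairs with all 4 mice, the exception being pDC-like cells of dLN. The ratio of WT2 to the mean of the other mice ran from 1.02 to 2.55 with a median of 1.62. No other of the 104 genes had 1 mouse highest in 11 or more pairs. The gene was singled out after its values were seen, and no cause was tested.

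Cox6b2, a complex IV isoform known from testis, stood at 0.306 UMIs per 10000 in cDC2-like cells of dLN, its highest level among the 7 dLN classes.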
